A study of Mus musculus with 6 samples.

Results

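The genes described here are the T cell receptor signalling machinery of the CD4+ T cell: 45 of the 34866 genes in the deposited table. They were chosen by name for their place in the pathway, with earlier results of these data known. All 45 were found, each under 1 identifier. RNA came from splenic effector memory CD4+ T cells of mice, helper T cells that have met antigen and circulate through tissues, with 3 libraries from wild-type mice (WT 1 to 3) and 3 from mice lacking Il1rn (Il1rnKO 1 to 3). The product of Il1rn is the antagonist of the interleukin-1 receptor, which keeps interleukin-1 from its receptor. The sources used here do not give the strain, age, allele or sorting gates, or say whether the samples of a group are separate animals. The p-values therefore reflect the spread among these samples, and that spread may be technical.

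The T cell receptor has no enzyme of its own. Its CD3 and zeta chains carry tyrosine motifs that the kinase Lck phosphorylates, which recruits the kinase Zap70. Zap70 then marks the adaptors Lat and Lcp2, on which phospholipase, Ras and Vav signalling assemble, and these open the calcium, calcineurin and NFAT branch and the protein kinase C-theta and NF-kappaB branch. Phosphatases, ubiquitin ligases, diacylglycerol kinases and inhibitory adaptors hold the signal down, and antigen-experienced T cells carry both arms at once.

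Library totals ran from 14102183 to 17677217 counts, and even the least abundant member had at least 322 counts in every library. For Il1rn itself the wild-type libraries held 6, 10 and 0 counts and the knockout libraries 1, 3 and 1, so its counts could not serve to verify the genotypes. The sort matched its label in CD4 T cell genes: Trac, the constant segment of the receptor alpha chain, stood at 683 to 852 CPM (counts scaled to the library total), while the CD8 genes Cd8a and Cd8b1 together stood at 3.62 to 5.03 CPM in wild type and 5.23 to 7.15 CPM in knockout. Cd44, which marks memory cells, stood at 227 to 323 CPM. Ccr7, a homing receptor that effector memory cells are defined by lacking, was at 120 to 269 CPM and thus not at 0. Summed transcripts of 8 neutrophil genes were at 0.0709 to 3.28 CPM across the wild-type libraries and 30.7 to 98.7 CPM across those of the knockout. The 4 macrophage and monocyte genes summed to 5.81 to 7.23 CPM in wild type and 7.61 to 13.9 CPM in knockout. Among them, Cd68 was highest in Il1rnKO 1 (10.8 CPM) and lowest in Il1rnKO 3 (1.34 CPM). The sums for gamma-delta T cell, B cell, NK cell, dendritic cell and erythroid genes overlapped between the groups. Those of the gamma-delta T cell, for example, were 28.3 to 36.4 CPM in wild type and 27.7 to 52.1 CPM in knockout. The sum of the regulatory T cell genes Foxp3, Il2ra and Ikzf2 was 285 to 358 CPM in the WT libraries and 396 to 708 CPM in those of the knockout. The part of these cells in the values below was not tested, and in such bulk samples fewer cells of a type and less RNA per cell cannot be told apart.

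None of the 45 members passed the test for a difference between knockout and wild type. In edgeR's quasi-likelihood test with Benjamini-Hochberg adjustment over all 13374 genes tested, 0 of 45 members had an adjusted p under 0.05, against 0.0523% of all genes. At an unadjusted p under 0.05 there were also 0 members, against 4.08% of all genes. DESeq2 and limma voom likewise called 0 members. Without Il1rnKO 3, edgeR gave 7 members an unadjusted p under 0.05, as it did 1873 of all 14026 genes tested there, and the lowest adjusted p of a member was 0.167. No member had CPM ranges that separated the groups, against 9.41% of all genes (CPM scaled by TMM, which evens out composition between libraries). Per length, on the TPM scale described further on, 3 members (Cd3g, Dok2 and Sla2) had separate ranges, against 7.16% of all genes. All 3 were higher in the knockout, the direction in which 6.0% of all genes had separate ranges. On that scale the median log2 ratio of knockout to wild-type means was 0.264 over all genes tested and 0.256 over the members, beside 0.017 and 0.02 in CPM, so TPM differences between the groups are to be read against that shift. Of the 45 log2 fold changes (knockout over wild type), 26 were above 0, with 52.6% above 0 among all genes. Their median was 0.02, beside 0.02 over all genes tested.

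The data also bound how large a difference could have been missed. The 95% interval of the log2 fold change lay inside -1 to 1, that is inside a 2-fold change either way, for 44 of 45 members, against 64.6% of all genes. Among genes as abundant as the members, the share was close to theirs: 96.4% of the 6538 genes in the members' range of mean log2 CPM had such an interval. The interval with the highest upper end reached a 1.63-fold excess in the knockout, and, Sit1 aside, the lowest reached a 1.76-fold deficit. Sit1, a transmembrane inhibitory adaptor singled out after its values were seen, had an interval from -1.11 to 0.34. The intervals are not adjusted for their number.

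**Figure D1:**
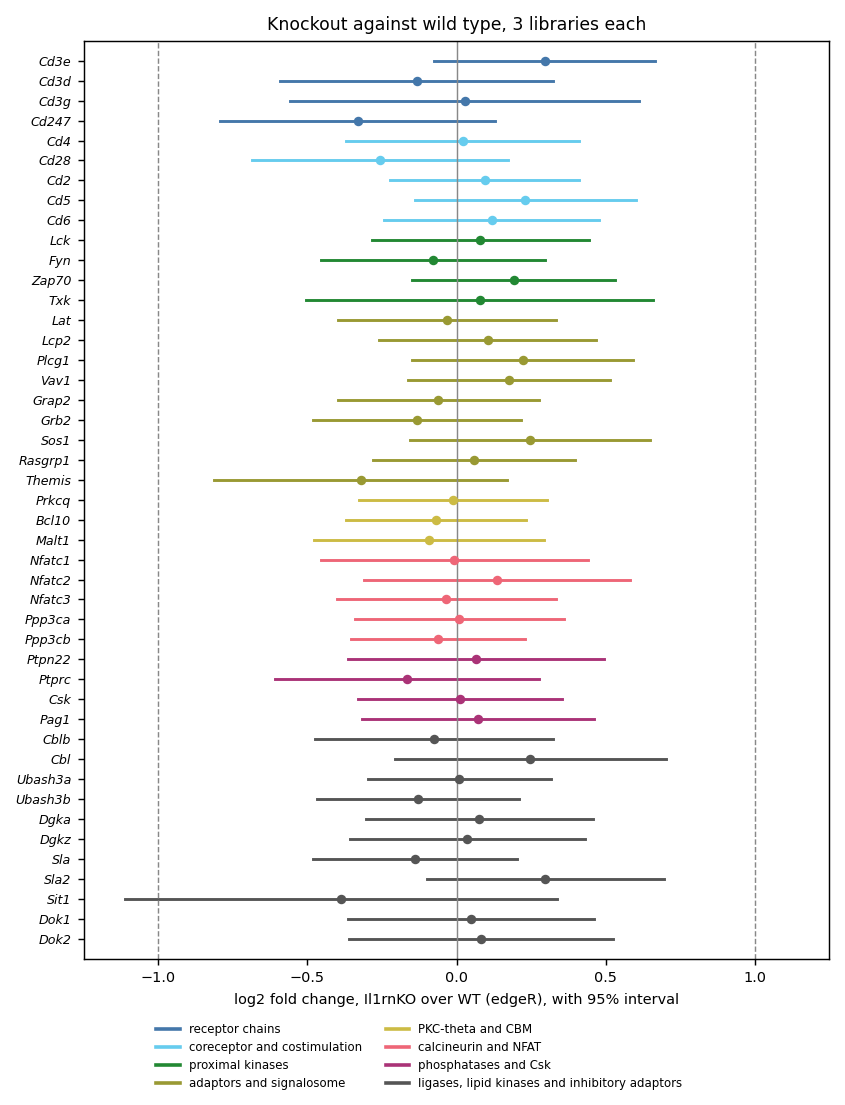
Log2 fold change of each member, knockout over wild type, by edgeR (points), with its 95% interval (lines), coloured by role. All 45 intervals include 0, and all but that of Sit1 lie between the dashed lines at -1 and 1, which mark a 2-fold change.

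The promoters of Cd3g, Cd3d and Cd3e are printed because these neighbours encode chains of one receptor and yet did not share one pattern across the libraries. They lie together on chromosome 9 (GRCm38), Cd3g and Cd3d pointing away from each other with 1354 bases between them, and the near end of Cd3e 11400 bases beyond Cd3d. Each sequence is the 250 bases before the RefSeq start (GRCm38.p6), read 5′ to 3′ on the gene's strand. Capitals mark matches to AGGAAG or its reverse complement, a core of ETS-family sites. The Cd3g window is chr9:44980432-44980681 on the minus strand, the Cd3d window chr9:44981536-44981785 on the plus strand, and the Cd3e window chr9:45009612-45009861 on the minus strand.
Cd3g: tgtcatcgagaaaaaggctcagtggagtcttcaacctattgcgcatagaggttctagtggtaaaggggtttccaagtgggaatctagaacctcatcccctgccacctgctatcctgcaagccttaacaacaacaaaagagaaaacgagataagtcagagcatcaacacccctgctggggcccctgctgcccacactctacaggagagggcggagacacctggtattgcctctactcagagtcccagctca
Cd3d: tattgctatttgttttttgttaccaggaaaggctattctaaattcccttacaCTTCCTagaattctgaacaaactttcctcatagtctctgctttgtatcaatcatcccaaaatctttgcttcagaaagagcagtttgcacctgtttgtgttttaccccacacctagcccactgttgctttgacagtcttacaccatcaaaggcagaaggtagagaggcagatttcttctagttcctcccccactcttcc
Cd3e: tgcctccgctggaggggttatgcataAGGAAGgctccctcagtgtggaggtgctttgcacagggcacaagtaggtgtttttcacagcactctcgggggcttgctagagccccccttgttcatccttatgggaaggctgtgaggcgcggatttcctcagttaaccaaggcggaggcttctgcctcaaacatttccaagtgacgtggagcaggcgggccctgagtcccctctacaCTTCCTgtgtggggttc

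The ETS letters occurred 0 times in the Cd3g window, once in that of Cd3d and 2 times in that of Cd3e. The core of RUNX-family sites was searched on both strands as TGTGGT and had 0 matches in the 3 windows. Of the E-box only the form CAGCTG was searched in the same way, again with 0 matches. Other forms of the E-box were not searched, so the windows may hold them. The TATA box, for which the letters were TATAAA, had 0 matches as well, and no matches overlapped one another. The RefSeq table held 50 promoters for 34 of the members. AGGAAG occurred in 60.0% of these, against 29.5% of all 32851 promoters of the same length. Counted by gene, 23 of 34 members (67.6%) had it in at least 1 promoter, against 32.3% of all genes in the table. Members with a single listed promoter had it in 11 of 21 cases (52.4%), against 29.1% of all such genes. The shares of all promoters and genes include genes too low to be tested here. No share over the genes tested was computed, so whether the excess is particular to the members is not shown. The other letters were no more frequent among members than among all promoters. The shares were 12.0% against 14.0% for the RUNX core, 8.0% against 13.0% for CAGCTG and 8.0% against 12.4% for the TATA box. A match describes the letters and is not a measured binding site.

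Among the receptor chains, the CD3 genes differed more in CPM between libraries of one genotype than between genotypes. Cd3g, which encodes CD3 gamma, stood at 483, 570 and 674 CPM in WT 1, 2 and 3 and at 487, 418 and 855 CPM in Il1rnKO 1, 2 and 3 (CPM scaled by TMM here and below). Il1rnKO 3 was the highest of all 6 libraries and Il1rnKO 2 the lowest, a 2.04-fold span inside the knockout group. Cd3d, which encodes CD3 delta, stood at 235, 271 and 292 CPM in WT 1, 2 and 3 and at 214, 190 and 323 CPM in Il1rnKO 1, 2 and 3, with the same libraries at its ends. The gene for CD3 epsilon, Cd3e, had 387, 313 and 302 CPM in WT 1, 2 and 3 and 459, 401 and 370 CPM in Il1rnKO 1, 2 and 3. Here Il1rnKO 1 was highest and WT 3 lowest, and the groups overlapped because WT 1 stood above Il1rnKO 3.

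Cd3e had a log2 fold change of 0.29 (SE 0.17, interval -0.07 to 0.66, edgeR adjusted p = 0.988). Cd247, which encodes the zeta chain with its repeated tyrosine motifs, stood at 417, 391 and 485 CPM in WT 1, 2 and 3 and at 301, 273 and 453 CPM in Il1rnKO 1, 2 and 3. Il1rnKO 1 and 2 were below every wild-type library and Il1rnKO 3 was above WT 1 and WT 2. Its log2 fold change was -0.33 (SE 0.21, interval -0.79 to 0.13, edgeR adjusted p = 0.988). Cd247 shares 3007 exonic bases with Pou2f1 on the opposite strand, and no source used here says whether counting used strand, so its value may hold reads of that gene. In all, 7 members (Plcg1, Dgka, Dgkz, Lcp2, Nfatc3 and Sla2 besides Cd247) share exonic bases with a coding gene on the opposite strand. Per length, the ratio of Cd3g to Cd3e ran from 1.56 to 2.78 in wild type and from 1.30 to 2.89 in knockout, and that of Cd3d to Cd3e from 1.37 to 2.17 and from 1.05 to 1.96. Cd3g itself stood at 448, 454 and 469 TPM in WT 1, 2 and 3 and at 508, 470 and 606 TPM in Il1rnKO 1, 2 and 3, and the 4 receptor chains summed to 1209 to 1365 TPM in wild type and 1403 to 1487 TPM in knockout. On this scale neither overlapped between the groups, with Il1rnKO 2 only just above WT 3 for Cd3g. The ratio of the group means was 1.13 for the sum and 1.16 for Cd3g, beside a median of 1.2 over all genes tested. The TPM sums of all other roles overlapped between the groups, and no share of separate sums over other gene sets was computed. Within the sum, Cd3e, Cd3d and Cd247 each overlapped in TPM. The mean of Cd247 was lower in knockout, at 193 TPM against 212 TPM in wild type.

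**Figure D2:**
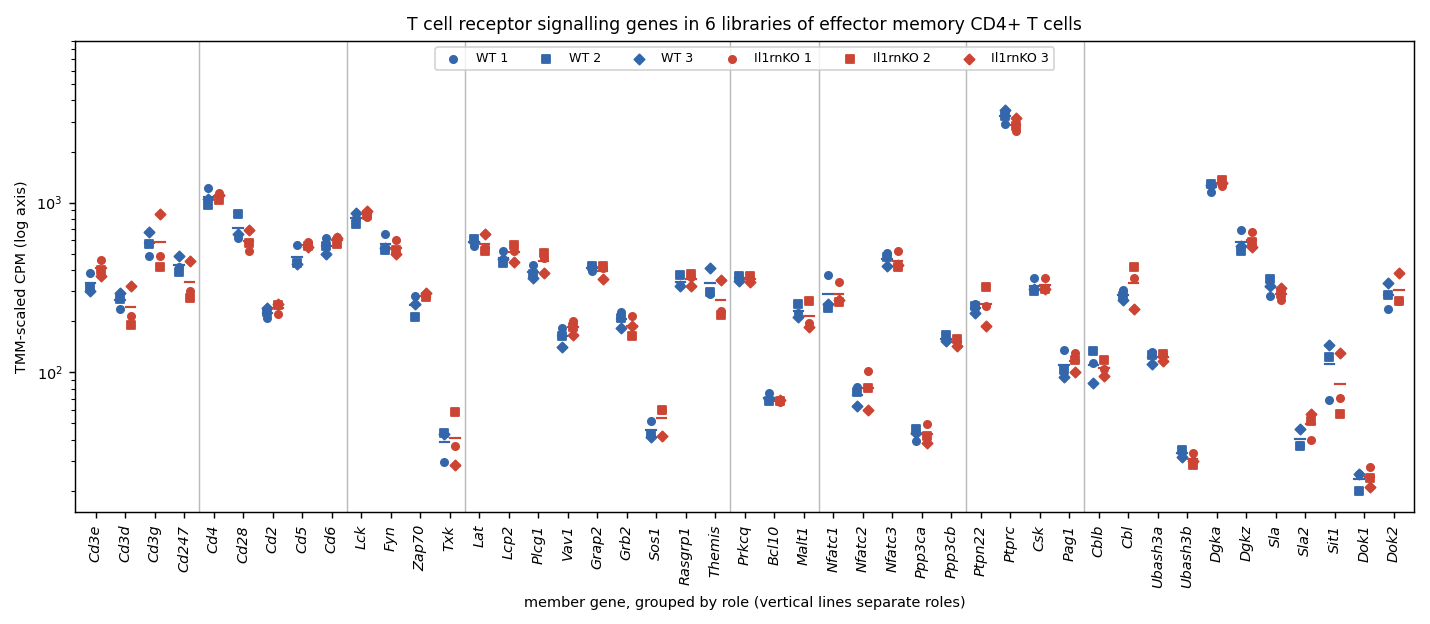
TMM-scaled CPM (log axis) of each member in WT 1 to 3 (blue) and Il1rnKO 1 to 3 (red); short lines are group means and vertical lines separate the roles. The groups overlap for all 45 members, and the knockout points of Cd3g spread from 418 to 855 CPM.

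Coreceptor and costimulatory genes were abundant, and their groups overlapped. Cd4, the coreceptor that binds class II molecules and a marker of the sort, stood at 1214, 975 and 1054 CPM in WT 1, 2 and 3 and at 1145, 1040 and 1103 CPM in Il1rnKO 1, 2 and 3. All knockout libraries lay inside the wild-type range, and the log2 fold change was 0.02 (SE 0.18, edgeR adjusted p = 0.998). Cd5, a scavenger-receptor family protein that dampens receptor signals, stood at 564, 441 and 436 CPM in WT 1, 2 and 3 and at 585, 555 and 549 CPM in Il1rnKO 1, 2 and 3. WT 1 alone reached the knockout range, and the log2 fold change was 0.23 (SE 0.17, interval -0.14 to 0.60, edgeR adjusted p = 0.988). Cd28, the main costimulatory receptor, stood at 617, 856 and 656 CPM in WT 1, 2 and 3 and at 516, 576 and 688 CPM in Il1rnKO 1, 2 and 3. The ranges overlapped through Il1rnKO 3, and the log2 fold change was -0.26 (SE 0.19, interval -0.69 to 0.17, edgeR adjusted p = 0.988). Cd2, an adhesion receptor, and Cd6, a relative of Cd5 that lies 50338 bases from it on chromosome 19, had means of 225 and 241 CPM and of 558 and 605 CPM in wild type and knockout.

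The proximal kinases held both steady and widely varying members. Lck, the Src-family kinase that starts the cascade, stood at 813, 747 and 868 CPM in WT 1, 2 and 3 and at 826, 850 and 890 CPM in Il1rnKO 1, 2 and 3. Its highest library was 1.19 times its lowest, and the log2 fold change was 0.08 (SE 0.16, interval -0.28 to 0.44, edgeR adjusted p = 0.988). Zap70, the kinase that docks on the phosphorylated chains, stood at 280, 211 and 253 CPM in WT 1, 2 and 3 and at 280, 278 and 292 CPM in Il1rnKO 1, 2 and 3. The knockout libraries were close together and WT 1 lay among them; the log2 fold change was 0.19 (SE 0.15, interval -0.15 to 0.53, edgeR adjusted p = 0.988). Per length, Lck was 2.96 to 3.61 times Zap70 in every library and 1.85 to 2.65 times Fyn, the other Src-family kinase of T cells. Txk, a Tec-family kinase, stood at 29.8, 44.1 and 43.2 CPM in WT 1, 2 and 3 and at 36.6, 58.5 and 28.3 CPM in Il1rnKO 1, 2 and 3, so that both its highest and its lowest library were knockouts.

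Adaptors and enzymes of the Lat complex lay on both sides of 0. Lat, the membrane scaffold, stood at 554, 614 and 586 CPM in WT 1, 2 and 3 and at 547, 516 and 652 CPM in Il1rnKO 1, 2 and 3. The wild-type libraries all lay inside the knockout range, and the log2 fold change was -0.03 (SE 0.17, edgeR adjusted p = 0.995). Of the 9 genes of this role, 5 had log2 fold changes above 0 and 4 below, from -0.32 to 0.25. The upper end was Sos1, a Ras activator, at 52.0, 43.4 and 41.4 CPM in WT 1, 2 and 3 and 60.0, 60.0 and 42.3 CPM in Il1rnKO 1, 2 and 3 (log2 fold change 0.25, SE 0.18, edgeR adjusted p = 0.988). The lower end was Themis, a T cell protein that tunes Lck and phosphatase activity, at 289, 299 and 414 CPM in WT 1, 2 and 3 and 231, 217 and 352 CPM in Il1rnKO 1, 2 and 3 (log2 fold change -0.32, SE 0.22, edgeR adjusted p = 0.988). In both genes Il1rnKO 3 stood apart from the other knockouts and among the wild-type values. Lcp2 (SLP-76), Plcg1, Vav1, Grap2, Grb2 and Rasgrp1, which bridge, cleave lipids, exchange nucleotides or load Ras, ranged from -0.13 to 0.22.

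In the branch to NF-kappaB, Prkcq and Bcl10 were steady and Malt1 was not. Prkcq, which encodes protein kinase C-theta, spanned 343 to 370 CPM over the 6 libraries, a 1.08-fold range and the smallest of the 45 members. Bcl10, an adaptor that binds Malt1, stood at 75.2, 68.1 and 69.3 CPM in WT 1, 2 and 3 and at 66.7, 67.6 and 68.4 CPM in Il1rnKO 1, 2 and 3. WT 2 lay inside the knockout range, and the log2 fold change was -0.07 (SE 0.14, interval -0.37 to 0.23, edgeR adjusted p = 0.988). Malt1, a paracaspase, stood at 223, 253 and 211 CPM in WT 1, 2 and 3 and at 195, 265 and 184 CPM in Il1rnKO 1, 2 and 3, with the wild-type libraries between the knockout extremes (log2 fold change -0.09, SE 0.17, edgeR adjusted p = 0.988).

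Calcineurin and NFAT genes likewise overlapped. Nfatc1, an NFAT factor that is itself induced by receptor signals, stood at 376, 241 and 254 CPM in WT 1, 2 and 3 and at 339, 261 and 266 CPM in Il1rnKO 1, 2 and 3. In each group library 1 was the highest, and the log2 fold change was -0.008 (SE 0.20, edgeR adjusted p = 0.998). Nfatc2 stood at 81.7, 76.6 and 63.0 CPM in WT 1, 2 and 3 and at 102, 80.9 and 60.4 CPM in Il1rnKO 1, 2 and 3, again with the extremes inside the knockout group (log2 fold change 0.14, SE 0.20, edgeR adjusted p = 0.988). Ppp3cb, a catalytic subunit of calcineurin, averaged 158 ± 6.11 CPM over the wild-type and 151 ± 7.57 CPM over the knockout libraries (SD, n = 3), with a log2 fold change of -0.06 (SE 0.13, edgeR adjusted p = 0.988). Per length, Ppp3cb stood above Ppp3ca, which encodes another catalytic subunit, in every library, the ratio of Ppp3ca to Ppp3cb being 0.223 to 0.287. Nfatc1 was 4.45 to 6.51 times Nfatc2 per length and close to Nfatc3, whose ratio to Nfatc1 was 0.856 to 1.26.

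Among the phosphatases and the Csk axis, Ptprc stood highest, both in counts and per length (mean 474 TPM, with Csk next at 252 TPM). Ptprc, which encodes CD45, the phosphatase that primes Lck, stood at 2926, 3241 and 3532 CPM in WT 1, 2 and 3 and at 2634, 2837 and 3171 CPM in Il1rnKO 1, 2 and 3. Il1rnKO 3 lay above WT 1, so the groups overlapped, and the log2 fold change was -0.17 (SE 0.20, interval -0.61 to 0.28, edgeR adjusted p = 0.988). Csk, the kinase that shuts Lck off, had means of 323 and 326 CPM in wild type and knockout. Pag1, the membrane anchor of Csk, had means of 111 and 116 CPM and a log2 fold change of 0.07 (SE 0.18, edgeR adjusted p = 0.990). Ptpn22, a phosphatase that dephosphorylates Lck and Zap70, spanned 188 to 320 CPM, both ends being knockout libraries.

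Of the 11 ubiquitin ligases, lipid kinases and inhibitory adaptors, 7 had log2 fold changes above 0 and 4 below. Sla2, an adaptor that helps remove the receptor from the surface, stood at 37.2, 37.0 and 46.6 CPM in WT 1, 2 and 3 and at 39.9, 52.0 and 56.7 CPM in Il1rnKO 1, 2 and 3. WT 3 lay inside the knockout range, and the log2 fold change of 0.30 (SE 0.18, interval -0.10 to 0.70, edgeR adjusted p = 0.988) was the highest of the 45. Sla2 shares 731 exonic bases with Rab5if on the opposite strand, which had 750 to 960 counts against 598 to 914 for Sla2. Cbl, a ubiquitin ligase of activated receptors, stood at 307, 280 and 267 CPM in WT 1, 2 and 3 and at 360, 416 and 237 CPM in Il1rnKO 1, 2 and 3. The wild-type values lay between knockout libraries, and the log2 fold change was 0.25 (SE 0.20, interval -0.21 to 0.70, edgeR adjusted p = 0.988). It was 0.042 without Il1rnKO 2 and 0.443 without Il1rnKO 3. Sit1 stood at 68.4, 123 and 145 CPM in WT 1, 2 and 3 and at 70.4, 56.7 and 130 CPM in Il1rnKO 1, 2 and 3, a 2.55-fold span that was the widest of the members. Dgka and Dgkz, which remove diacylglycerol, had means of 1239 and 1306 CPM and of 588 and 602 CPM in wild type and knockout, and Ubash3a, a suppressor of T cell receptor signalling, had 124 and 124 CPM. The log2 fold changes of Cblb, a ubiquitin ligase that sets the need for costimulation, Ubash3b, a relative of Ubash3a, Sla, a relative of Sla2, and the Ras-restraining adaptors Dok1 and Dok2 ran from -0.14 to 0.08.

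Spread inside the groups was larger than the difference between them for most members. On the log2 CPM scale the median range among the 3 wild-type libraries was 0.312 and among the 3 knockout libraries 0.328, whereas the median absolute difference of group means was 0.082. Both ranges exceeded the difference for 40 of 45 members. The highest library was at least 1.08 and at most 2.55 times the lowest, and over 1.5 times for 15 members. Neither count was made over all genes, so whether either is particular to the members is not shown. For comparison, the median SD within groups was 0.165 for the members, 0.205 for all genes in their range of mean log2 CPM and 0.300 for all genes tested.

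Inside the knockout group, Il1rnKO 2 and Il1rnKO 3 lay far apart for several members, though for a smaller share of them than of all genes. The level was higher in Il1rnKO 3 by over 0.5 on the log2 scale in 6 of 45 members. They were Sit1, Cd3g, Cd3d, Cd247, Themis and Dok2, a share of 13.3%, against 19.9% of all genes tested. Another 5 (11.1%), Txk, Cbl, Ptpn22, Malt1 and Sos1, were lower by over 0.5, against 21.6% of all genes. These shares of all genes include genes far less abundant than the members. No share over genes as abundant as the members was computed, so the smaller share is not shown to be particular to them. The differences of Il1rnKO 3 from Il1rnKO 2 were 1.19 for Sit1 and 1.03 for Cd3g at one end and -1.04 for Txk and -0.81 for Cbl at the other. The first 6 had merged exons of median length 3085.5 bases and the other 5 of 10955 bases, beside 6122 over all members. Across the 45 members, Spearman's rho between exon length and this difference was -0.47, all points sharing the same 2 libraries. Neither the lengths nor rho were computed over all genes, so whether this is particular to the members is not shown. Mitochondrially encoded genes took 3.438% of the counts in Il1rnKO 2 and 8.339% in Il1rnKO 3, and 3.686% in Il1rnKO 1 and 5.676, 7.317 and 8.917% in WT 1, 2 and 3; their part in these differences was not tested. The genes were picked out for this difference after their values were seen.

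**Figure D3:**
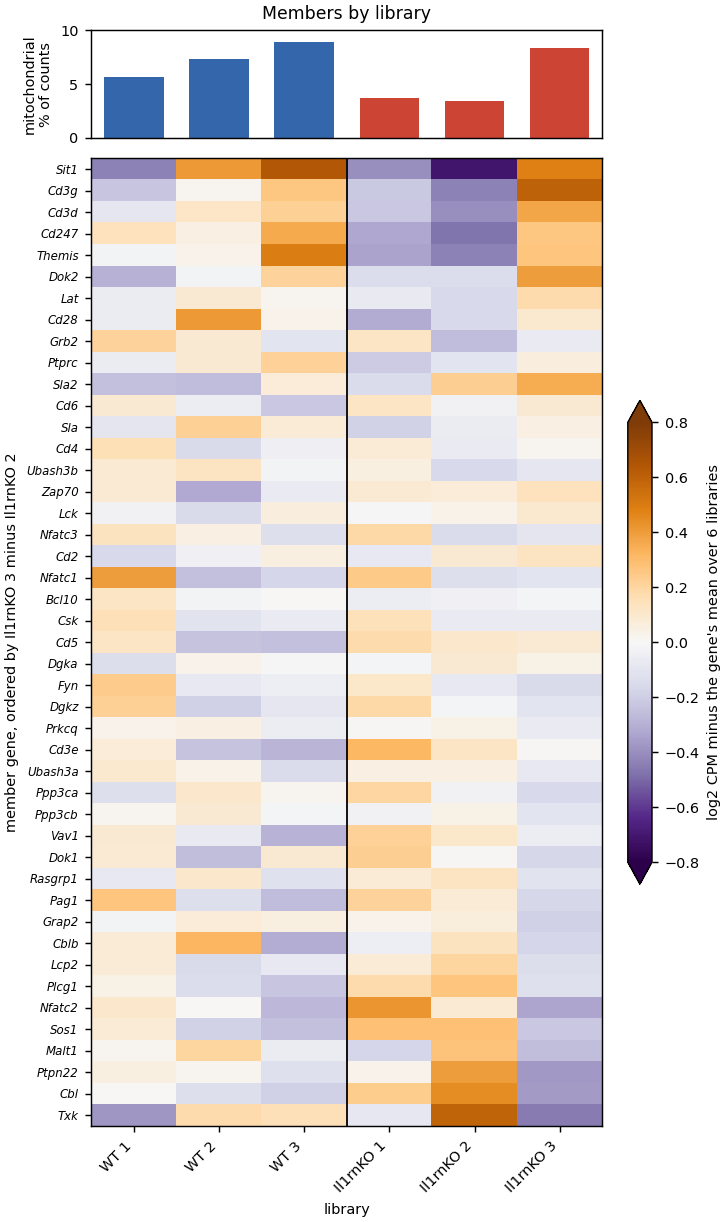
Log2 CPM of each member minus its mean over the 6 libraries (colour), with members ordered by Il1rnKO 3 minus Il1rnKO 2, under the share of mitochondrially encoded counts (bars, percent). Sit1, Cd3g and Cd3d at the top are high in Il1rnKO 3 and WT 3 and low in Il1rnKO 2, and Txk and Cbl at the bottom are high in Il1rnKO 2.

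Compared per length, most members stood among the more abundant genes of these cells. Counts were divided by the length of each gene's merged exons in GENCODE M21 and scaled to the same total in every library (TPM). Lck was the highest member at a mean of 819 TPM over the 6 libraries, followed by Cd4 with 781 and Dgka with 772 TPM, whose ranges overlapped. Lat (595 TPM), Cd3g (493), Ptprc (474), Cd3d (391), Cd2 (385), Fyn (371) and Lcp2 (323 TPM) came next. Thus a kinase, the coreceptor and an enzyme that ends diacylglycerol signalling headed the order. Of the receptor chains Cd3g and Cd3d were among the 10 highest, while Cd3e (268 TPM) and Cd247 (202 TPM) stood further down. Of the 45 members, 29 were at or above the 90th percentile of the genes tested.

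At the low end, Sos1 (14.0 TPM), Ppp3ca (12.6), Ubash3b (12.6) and Txk (10.8 TPM) were below the 50th percentile. In 43 of the 44 steps down the order the ranges of neighbours overlapped, so the order is firm only over longer distances. Among related genes, Ubash3a stood 2.30 to 2.92 times above Ubash3b, Dgka 2.21 to 3.28 times above Dgkz and Dok2 6.40 to 12.4 times above Dok1 in every library. Of the 20 ratios computed between members, 2 had separate ranges in the groups: Sla stood 2.32 to 3.22 times above Sla2 in wild type and 1.87 to 2.25 times in knockout, and Cd2 stood at 0.933 to 1.29 times Cd28 in wild type and 1.30 to 1.51 times in knockout. In both, the near ends of the groups were close, at 2.25 against 2.32 and at 1.29 against 1.30. These pairs were picked out after their values were seen and were not tested. No share over other gene pairs was computed, so 2 of 20 cannot be set against a background. Cblb, by contrast, stood below Cbl in every library, at 0.333 to 0.565 of its level. Merged exons count rare isoforms too, which lowers the level of long, many-form genes such as Ptprc, whose merged exons span 18313 bases.

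**Figure D4:**
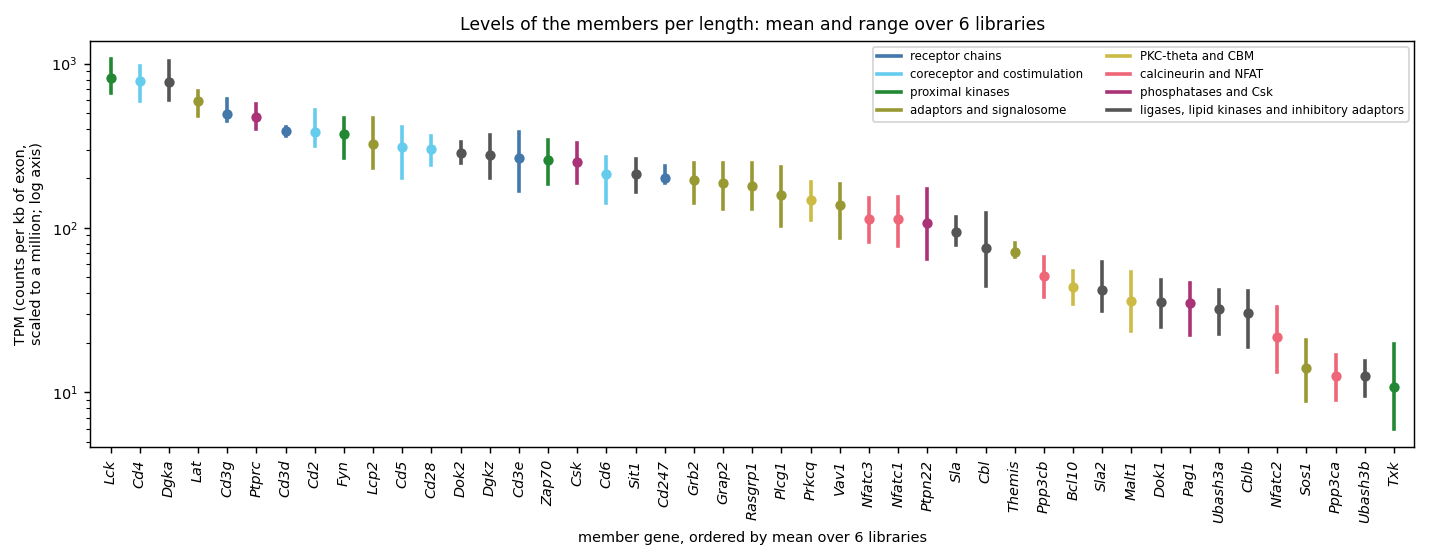
Level per length (TPM, log axis) of each member as the mean over 6 libraries (points) with the lowest and highest library (lines), coloured by role and ordered by mean. Lck, Cd4 and Dgka lead with means of 772 to 819 TPM, and Sos1, Ppp3ca, Ubash3b and Txk close the order at 10.8 to 14.0 TPM.

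Other genes of the same pathway showed no call either. Of 79 partner genes outside the 45, such as the calcium channel genes and the MAP kinases, 78 passed the filter (Gab2 did not, with at most 17 counts), and edgeR called 0 at an adjusted p under 0.05; so did DESeq2 and limma voom. Their log2 fold changes had a median of 0.009 (40 above 0), and 74 intervals lay inside a 2-fold change, against 64.6% of all genes. Over genes in the members' range of mean log2 CPM the share was 96.4%. It was not computed for genes as abundant as the partners. At an unadjusted p under 0.05 there were 3 partners, against 4.08% of all genes, so the partners were close to the background. Mapk9, which encodes the kinase JNK2, stood at 57.6, 46.9 and 50.9 CPM in WT 1, 2 and 3 and at 76.7, 79.5 and 58.9 CPM in Il1rnKO 1, 2 and 3 (log2 fold change 0.47, SE 0.17, edgeR adjusted p = 0.988). Pik3r1, a regulatory subunit of phosphoinositide 3-kinase, stood at 224, 331 and 231 CPM in WT 1, 2 and 3 and at 201, 198 and 179 CPM in Il1rnKO 1, 2 and 3 (log2 fold change -0.45, SE 0.18, edgeR adjusted p = 0.988). CPM ranges were separate for 4 of the 78 (Mapk9, Pik3r1 and, picked out after their values were seen, Nras and Rasa1), against 9.41% of all genes. Tagap, a GTPase-activating protein of T cells, and Ikbkb, a kinase of the NF-kappaB inhibitor, stood at -0.47 (SE 0.21) and 0.36 (SE 0.21) in log2 fold change, both with an edgeR adjusted p of 0.988.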

How the data were processed

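Poly(A) RNA of 6 sorted samples was sequenced from both ends with a kit that keeps strand, per the labels' protocols. The authors deposited unscaled estimated counts per gene, 20.7% of them with decimals, made on GRCm38 per the submitters' processing notes. The sources used here do not name the aligner, the counter or its use of strand. Each column carried 1 sample's name. Counts were rounded to whole numbers. Of 34866 identifiers, 34652 matched GENCODE M21 (GRCm38) without their version.

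The groups were set against each other in edgeR 4.0.16 under R 4.3.3 (TMM, filterByExpr with a minimum count of 10 and total of 15, two-sided quasi-likelihood test, Benjamini-Hochberg, threshold 0.05), without a replicate block. SE is the absolute log2 fold change over the root of F, and the 95% interval uses the t quantile. Fits were tested on simulated counts. With changes put into genes picked at random from all 13374 tested, edgeR called 49% of 2-fold and 78% of 4-fold changes. It made 5 false calls. These shares cover genes of all levels and not the members alone. Alternatives used limma 3.58.1 and DESeq2 1.42.0. Log2 CPM used a prior count of 2. Marker sums and their genes use plain library totals. Intervals cover the spread between these samples.

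The members and lists were chosen with earlier results of these data known. Fold changes with tests are given for 8 members whatever their result (Cd3e, Cd247, Cd4, Lck, Zap70, Lat, Ptprc and Nfatc1), for any with an unadjusted or adjusted p under 0.05, for the 2 smallest p in each role, and for the 4 partners with the smallest p.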

Additional observations from a re-analysis of the deposited data

How the results depend on the processing

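No alternative called a member or a pathway partner at an adjusted p under 0.05. The lowest adjusted p of any member was 0.167, in edgeR without Il1rnKO 3, where 7 members (Cbl, Cd247, Cd3d, Cd3e, Sit1, Sos1 and Themis) had an unadjusted p under 0.05, as did 1873 of all 14026 genes tested there. Such members numbered 6 with limma voom, 4 with the replicate block and 3 with the mitochondrial share as a covariate, beside 1615, 1228 and 845 of all 13374 genes in those fits, and 0 in the other alternatives. Members with an interval inside a 2-fold change numbered 43 to 45 in every alternative. The count over all genes, 7 as reported, was 58 with no filter, 25 with DESeq2, 14 with the mitochondrial share as a covariate, 11 with limma voom, 11 with the replicate block and 3 to 10 with a library left out (3 without WT 1 or WT 3, 4 without WT 2, Il1rnKO 1 or Il1rnKO 2). The median of the members was -0.051 with the mitochondrial share as a covariate and ran from -0.043 to 0.045 with a library left out, lowest without Il1rnKO 1.

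Separate ranges per length, 3 members beside 0 in CPM, are a setting added after the data were seen. Of the 23 named genes 16 kept their direction in all 14 alternatives, but 14 of these, all but Cd5 and Bcl10, moved by over 1.5 times in at least 1. The log2 fold change came nearest to 0 with the mitochondrial share as a covariate for Sos1 (0.010), Themis (-0.034), Ikbkb (0.047), Ptprc (-0.05) and Cd247 (-0.107), and without WT 2 for Lck (0.023), Cd28 (-0.103) and Tagap (-0.241). Without Il1rnKO 3 it was -0.59 for Cd247, -0.577 for Themis and 0.392 for Sos1. With the mitochondrial share as a covariate the log2 fold change was -0.009 for Cd4, 0.075 for Lat, -0.14 for Nfatc2, -0.11 for Pag1 and -0.062 for Cbl. Nfatc1 had 0.011 with the replicate block and 0.13 with limma voom. With a library left out the values ran from -0.052 to 0.077 for Cd4, from -0.14 to 0.013 for Lat, from -0.30 to 0.003 for Malt1, from -0.16 to 0.19 for Nfatc1, from -0.089 to 0.31 for Nfatc2, from -0.04 to 0.21 for Pag1 and from 0.042 (without Il1rnKO 2) to 0.443 (without Il1rnKO 3) for Cbl. The cause was not tested. Ranked by CPM without length, the 10 highest members shared 7 with the 10 highest per length.

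The labels tie same-numbered libraries of the groups by nothing but a number, and the sources used here do not say whether they share more. The deviations of these pairs from the group means correlated at 0.108, 0.053 and 0.116 for numbers 1, 2 and 3. Not all were over 0.1, though every library correlated best with its own number. The replicate block changed no call of a member. Over all genes, those with an edgeR unadjusted p under 0.05 numbered 1228 with it and 545 without. Each member had at least 322 counts in every library; the part of depth and of the number of libraries in the missing calls was not tested.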
